A study of Mus musculus with 6 samples.

Results

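The tumor necrosis factor (TNF) superfamily of ligands and receptors was examined in CD11c+ and CD11c- effector memory T cells from mouse blood. Its members were taken by gene symbol, as every symbol that begins with Tnfsf or Tnfrsf and a digit, with the addition of Tnf, Lta, Ltb, Ltbr, Fas, Fasl, Cd27, Cd40, Cd40lg, Cd70, Ngfr and Eda2r. This gave 40 members among the 17097 genes that the array measured with a probe set of a single symbol. By role these were 14 ligands, 6 receptors with a death domain, 16 receptors that bind TRAF adaptors and lack a death domain, 3 decoy or other receptors, and Tnfsf13os. The last is a transcript from the strand opposite Tnfsf13 that the wording of the rule takes in, and it is no ligand. Tnfrsf26, Tnfsf12, Tnfsf15 and Tnfsf18 have no probe set of their own here and were not analysed.

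CD11c+ cells, sorted as CD3+ CD62L- CD44high CD11c+, were set against CD11c- cells, sorted from the same blood sample as CD3+ CD62L- CD44high CD11c-. Blood came from 3 female C57BL/6 mice of 6 to 8 weeks, labelled A, C and D, for which the labels name no mutation or transgene, and each fraction of each mouse was 300 sorted cells measured on its own Affymetrix array after amplification of the cDNA. The labels describe a progestin, 3 mg of Depo-Provera under the skin, given 5 days before the animals were bled, a day later than in the methods of the study, and both fractions share that treatment. The values are log2 signals after RMA normalization, and differences are CD11c+ minus CD11c- within a mouse, tested by limma in a fit blocked by mouse, with p-values adjusted by Benjamini-Hochberg across the 45141 probe sets of the array.

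TNF superfamily ligands are mostly membrane proteins that assemble as trimers and can be shed from the cell, and their receptors carry cysteine-rich repeats outside the cell. Receptors with a death domain can recruit adaptors and caspases that kill the cell, whereas the others recruit TRAF proteins that lead to NF-kappaB and MAP kinase signalling. In T cells the family includes co-stimulatory receptors such as OX40, GITR and CD27 and the ligand CD40L, by which helper T cells signal to B cells and antigen-presenting cells.

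Itgax, which encodes CD11c, had a signal of 8.97 ± 0.074 in the CD11c+ fraction, against 4.60 ± 1.05 in the CD11c- fraction (mean ± SD over 3 mice, as for the values that follow). The T cell marker Cd3e had 10.6 ± 0.054 in CD11c+ and 11.1 ± 0.033 in CD11c- cells, and the 10 T cell markers measured, of which 2 fell, summed to a linear signal of 6092 to 7439 in CD11c+ against 11323 to 12020 in CD11c- cells. Markers of some other cells moved with the fractions. Of 9 basophil and mast cell markers 8 rose, and their summed linear signal was 3278 to 5445 in CD11c+ against 144 to 158 in CD11c- cells. Of 11 monocyte and macrophage markers 4 rose, with a summed signal of 4015 to 5095 in CD11c+ against 1360 to 1569 in CD11c- cells. Of 7 conventional dendritic cell markers 3 rose, with a summed signal of 1322 to 2418 in CD11c+ against 181 to 206 in CD11c- cells, while Zbtb46, which defines them, was not above background in either. Of 6 NK cell markers 2 rose and 1, Klrb1c, fell, with a summed signal of 1358 to 1641 in CD11c+ against 794 to 898 in CD11c- cells. Ncr1, which defines NK cells, was not above background in either fraction. Of 11 B cell markers 2 rose. Most markers of 4 further cell types did not pass. Of 6 neutrophil markers 1 rose, as did 1 of 5 plasmacytoid dendritic cell markers, 1 of 5 platelet markers and 0 of 4 erythroid markers. Their median differences were -0.080, -0.168, 0.035 and -0.019, and 0 fell in each. Of 6 regulatory T cell markers 3 fell, with a summed signal of 583 to 814 in CD11c+ against 1900 to 2640 in CD11c- cells, and Foxp3, which defines those cells, had 5.76 ± 0.56 in CD11c+ and 8.21 ± 0.076 in CD11c- cells. Cd4 had 7.80 ± 1.11 in CD11c+ and 10.3 ± 0.21 in CD11c- cells, with an adjusted p of 0.0973 in limma. Cd8b1, a chain of CD8, had 10.03 ± 0.087 in CD11c+ and 8.60 ± 0.084 in CD11c- cells, with an adjusted p of 0.0333 in limma. Cd8a, the other chain, had 10.5 ± 0.18 in CD11c+ and 8.95 ± 0.91 in CD11c- cells and did not pass (adjusted p = 0.151 in limma). The part of these cells in the values of the TNF family was not tested. In sorted populations such as these, fewer cells that express a gene and less of its RNA per cell cannot be told apart.

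Among the 40 members, 1 ligand rose in CD11c+ cells, Tnfsf13, and 2 receptors fell, Tnfrsf4 and Tnfrsf25, while 37 did not pass an adjusted p of 0.05 in limma. Of the members 2.5% rose and 5% fell, against 1.4% and 0.222% of all genes measured, or 1.63% in either direction, and 1.13% of all probe sets passed. At an unadjusted p under 0.05 in limma there were 3 members with higher and 12 with lower signal in CD11c+ cells. Over all 17097 genes there were 1262 with higher and 1272 with lower signal. These counts over all genes also stand beside those given below by role and for signalling genes. The members' differences had a median of -0.124, against -0.0864 over all genes. Centring the arrays on the CD3 chains, which lay 0.739 lower in CD11c+ cells on average, adds 0.739 to both medians. Both medians then turn positive, with 9 members left below 0 in place of 24. With CD3 centring 22412 of the 45141 probe sets rose and 232 fell, against 432 and 76 without it. Its adjusted p-values, given for some members below, are therefore not comparable with the others. By mouse the median difference of the members was -0.272 in mouse A, -0.150 in mouse C and -0.068 in mouse D.

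The direction of the differences was shared by the mice more often downward. All 3 mice had lower signal in CD11c+ cells for 17 members, or 42.5%, against 26.5% of all genes, and higher signal for 5, or 12.5%, against 12.6% of all genes. The values of the fractions did not overlap for 11 members with lower signal in CD11c+ cells, or 27.5%, against 12.5% of all genes, and for 3 members with higher signal, or 7.5%, against 7.48% of all genes. These shares rest on 3 mice and were not tested. Many members were dim on the array. Background was set at 5.25, a level that 95% of 34 control genes, known from other tissues, did not exceed in their means. By that measure 20 members were above background in both fractions, 2 only in CD11c+ cells, 3 only in CD11c- cells and 15 in neither, Tnfsf13 among them.

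**Figure D1:**
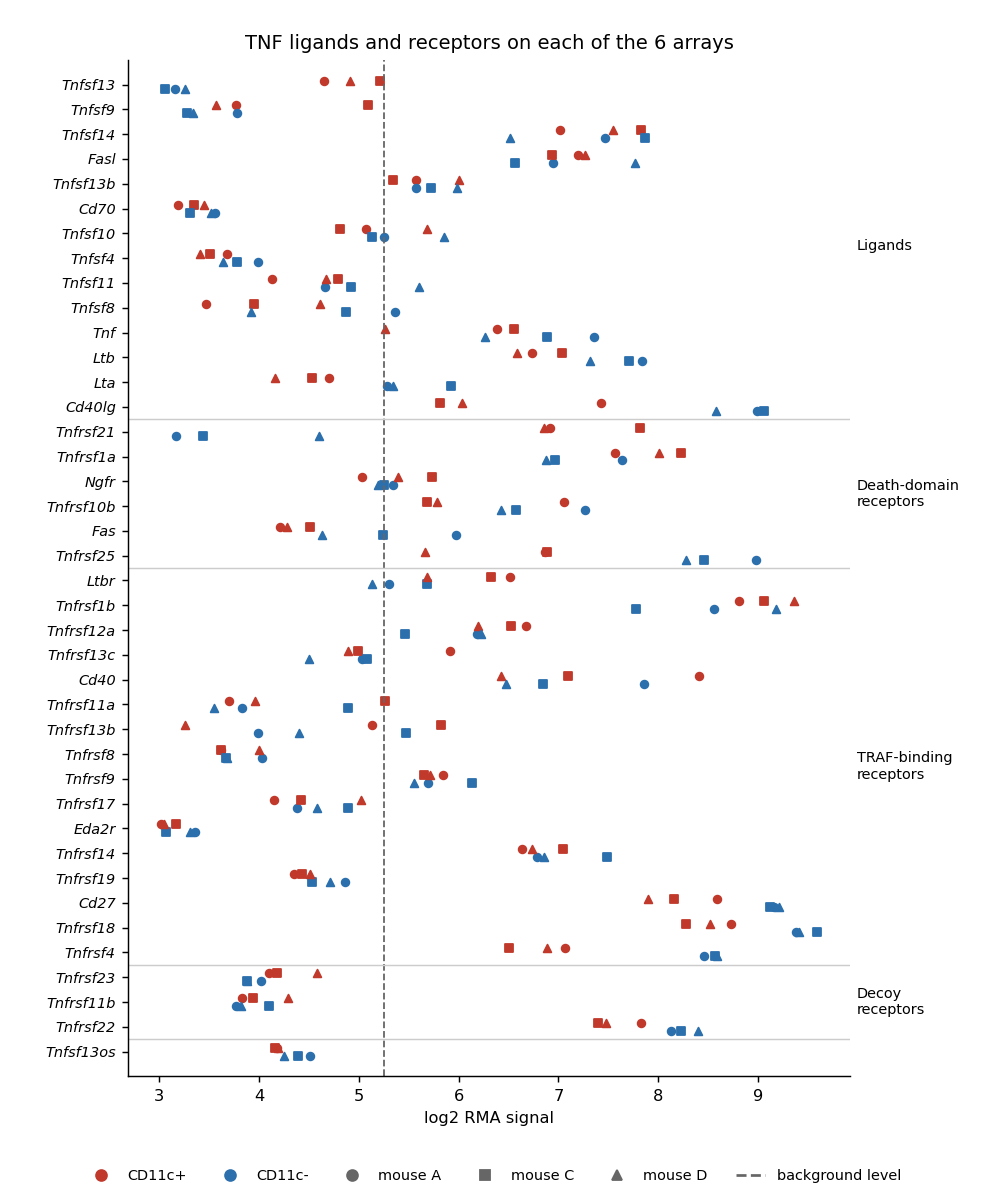
Log2 RMA signal (horizontal axis) of the 40 members (vertical axis, by role) on each of the 6 arrays, with colour for the fraction, marker shape for the mouse and background (5.25) as a dashed line. Tnfrsf21 and Tnfsf13 lie to the right in the 3 CD11c+ arrays, and Cd40lg, Tnfrsf25, Tnfrsf4, Tnfrsf18 and Cd27 lie to the left in them.

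**Figure D2:**
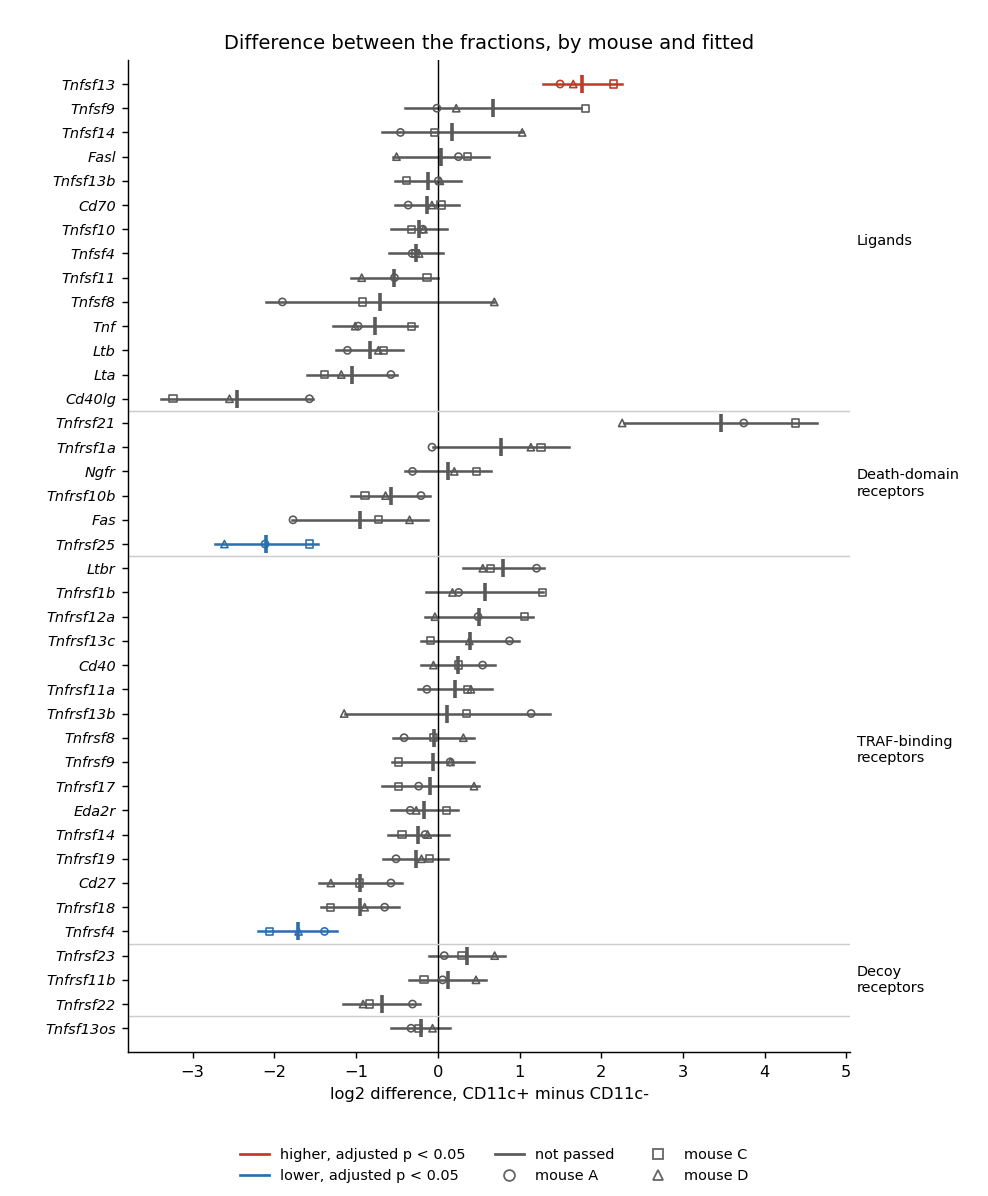
Log2 difference between the fractions, CD11c+ minus CD11c- (horizontal axis), of the 40 members (vertical axis, by role), with open markers for each mouse, a bar for the fitted value and a line for its 95% confidence interval. The 3 members past the adjusted p of 0.05 are coloured, and Tnfrsf21 and Cd40lg lie farther from 0 than these with wider intervals.

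Tnfsf13 encodes APRIL, a ligand of B cells and plasma cells that binds BCMA and TACI. Its signal was 4.65 in mouse A, 5.21 in mouse C and 4.91 in mouse D in CD11c+ cells, against 3.16, 3.06 and 3.25 in the CD11c- cells of the same mice. The fractions did not overlap, although the mean of neither lay above the background level. The difference was 1.77 (SE 0.181, 95% confidence interval 1.28 to 2.25), with an adjusted p of 0.0403, and its size is not exact at such low signal. The adjusted p was 0.184 without mouse A, where no probe set on the array passed, 0.125 without mouse C and 0.0806 without mouse D. Tnfsf13 overlaps Tnfsfm13 and Tnfsf13os in the annotation, and how far their transcripts share its signal was not tested.

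The 250 bases before the start of Tnfsf13, the member that rose, and of Ltb, a ligand of the TNF locus described below, are shown because they hold the matches found for these ligands, and they come from RefSeq on GRCm38.p6. The first is chr11:69685555-69685804 on the minus strand, which overlaps Tnfsf13os and Tnfsfm13, and the second is chr17:35194257-35194506 on the plus strand. Capitals mark the AP-1 motif TGANTCA at base -133 and the RUNX motif TGTGGT, on the other strand, at base -120 of Tnfsf13, and the kappaB motif at base -87 of Ltb, counted back from the start.
Tnfsf13: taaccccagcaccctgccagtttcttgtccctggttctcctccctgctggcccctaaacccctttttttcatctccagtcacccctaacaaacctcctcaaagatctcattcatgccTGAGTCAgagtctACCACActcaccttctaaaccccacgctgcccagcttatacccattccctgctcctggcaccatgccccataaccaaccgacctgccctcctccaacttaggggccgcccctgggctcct
Ltb: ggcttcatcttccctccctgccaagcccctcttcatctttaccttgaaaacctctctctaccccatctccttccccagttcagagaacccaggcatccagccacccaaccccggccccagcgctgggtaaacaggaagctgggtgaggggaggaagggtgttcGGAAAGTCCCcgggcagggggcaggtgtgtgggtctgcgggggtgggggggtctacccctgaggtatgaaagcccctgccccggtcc
Of all 32851 promoters of this length in the table, 6.75% hold the AP-1 motif on either strand and 7.25% the kappaB motif, and the RUNX motif stands in 4614 of them. Among the 35 promoter entries of the 31 members that matched the table, 6 held the AP-1 motif (17.1%), 3 the RUNX motif (8.57%) and 4 the kappaB motif (11.4%). The kappaB motif stood in the windows of Ltb, Tnfrsf25, Tnfrsf8 and Tnfrsf9. A match is a description of the letters and shows no binding.

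Cd40lg encodes CD40 ligand, which activated helper T cells display to B cells, dendritic cells and macrophages. Its signal was 7.42 in mouse A, 5.82 in mouse C and 6.03 in mouse D in CD11c+ cells, against 8.99, 9.06 and 8.58 in CD11c- cells. Every CD11c+ array lay below every CD11c- array, and mouse A stood highest among the CD11c+ arrays. The difference was -2.45 (SE 0.348, 95% confidence interval -3.38 to -1.52), a 5.48-fold lower signal, and its adjusted p of 0.0760 missed the threshold. It passed when the prior spread followed the signal, a trended variance (0.0327), with the mouse as a random effect (0.0361), with probe sets under the median mean left out as dim (0.0377) and when the probe sets of each gene were averaged (0.0342). With CD3 centring the difference was -1.71 (0.00112). Cd40lg did not pass without mouse A (0.156), mouse C (0.150) or mouse D (0.143). Nor did it pass with arrays centred on their median (0.117), after cyclic loess (0.116) or without the mouse block (0.0509). Cd4, which marks helper T cells, had a difference of -2.50 between the same fractions, and its part in the values of Cd40lg was not tested.

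Tnf, Lta and Ltb lie side by side on chromosome 17 and encode TNF, lymphotoxin alpha and lymphotoxin beta. Lta, whose product is a secreted trimer or pairs with lymphotoxin beta at the membrane, had 4.70, 4.53 and 4.16 in CD11c+ cells, against 5.28, 5.92 and 5.34 in CD11c- cells. Ltb had 6.74, 7.04 and 6.59 in CD11c+ cells, against 7.84, 7.70 and 7.31 in CD11c- cells. Tnf, the founding inflammatory cytokine of the family, had 6.38, 6.56 and 5.26 in CD11c+ cells, against 7.36, 6.88 and 6.27 in CD11c- cells. The signal was lower in the CD11c+ fraction of 3 of 3 mice for each of these genes. The fractions overlapped only for Tnf among them, where the CD11c- array of mouse D was below the CD11c+ arrays of mice A and C. The differences were -1.05 for Lta (SE 0.205, adjusted p = 0.134), -0.83 for Ltb (SE 0.154, adjusted p = 0.121) and -0.77 for Tnf (SE 0.194, adjusted p = 0.204), so none passed in limma, although the 95% confidence interval of each lay below 0. The CD11c+ arrays of Lta were all below background, so its difference is not exact, and against that level its signal was at least 1.20-fold lower. With the arrays centred on the CD3 chains they were -0.31, -0.09 and -0.03.

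Fasl, the death ligand by which cytotoxic lymphocytes kill Fas-bearing cells, had 7.20, 6.93 and 7.26 in CD11c+ cells, against 6.95, 6.56 and 7.77 in CD11c- cells. It was higher in the CD11c+ fraction of mice A and C and lower in that of mouse D. The fitted difference was 0.04 (95% confidence interval -0.55 to 0.63, adjusted p = 0.955), and the second probe set of the gene gave -0.54 (adjusted p = 0.179) and was lower in 3 of 3 mice. Tnfsf14, which encodes LIGHT, a ligand of HVEM and of the lymphotoxin beta receptor, had 7.01, 7.83 and 7.55 in CD11c+ cells, against 7.47, 7.87 and 6.52 in CD11c- cells. Its difference was 0.18 (95% confidence interval -0.68 to 1.04), and its second probe set gave -0.37. Neither ligand thus had a direction that its probe sets shared.

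The remaining ligands had small differences or dim signal. Tnfsf13b, which encodes the B cell survival factor BAFF, had a mean of 5.64 in CD11c+ and 5.76 in CD11c- cells, a difference of -0.12 (95% confidence interval -0.52 to 0.29). Tnfsf10, which encodes the death ligand TRAIL, had a mean of 5.19 in CD11c+ and 5.41 in CD11c- cells, a difference of -0.23 (95% confidence interval -0.57 to 0.11). Both intervals include 0. Tnfsf4, the ligand of OX40, had 3.68, 3.51 and 3.41 in CD11c+ cells, against 3.99, 3.78 and 3.63 in CD11c- cells, and Cd70, the ligand of CD27, had 3.19, 3.35 and 3.45 in CD11c+ cells, against 3.55, 3.31 and 3.52 in CD11c- cells. These and the ligands of CD30 (Tnfsf8) and RANK (Tnfsf11) and the co-stimulatory ligand Tnfsf9 lay below background in both fractions. Their differences ran from -0.71 for Tnfsf8 to 0.67 for Tnfsf9, where a single CD11c+ array, that of mouse C, stood at 5.09 and the other 5 arrays between 3.28 and 3.78. Over the 14 ligands 1 rose and 0 fell in limma, with 5 more below 0 at an unadjusted p under 0.05, and their median difference was -0.25.

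**Figure D3:**
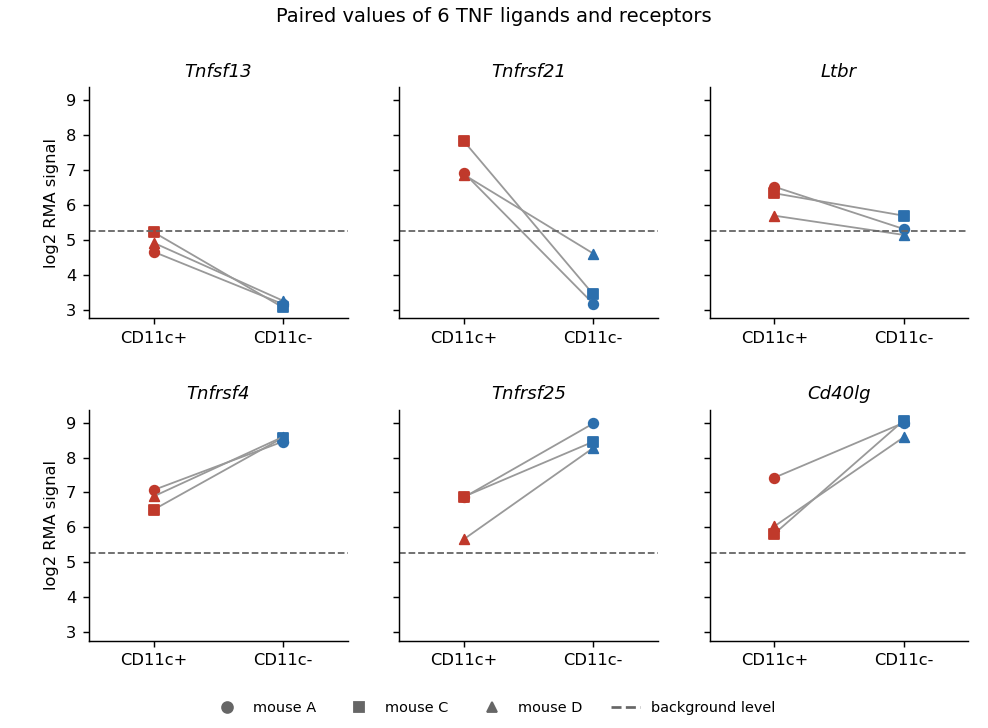
Log2 RMA signal (vertical axis) of 6 members in the CD11c+ and the CD11c- fraction (horizontal axis), with a line joining the fractions of each mouse and background (5.25) as a dashed line. The lines of Tnfsf13, Tnfrsf21 and Ltbr go down from CD11c+ to CD11c- in 3 of 3 mice, and those of Tnfrsf4, Tnfrsf25 and Cd40lg go up in 3 of 3 mice.

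Among receptors with a death domain, Tnfrsf25 fell. It encodes DR3, a receptor of T cells for the ligand TL1A that also acts in regulatory T cells. Its signal was 6.86, 6.88 and 5.66 in the CD11c+ cells of mice A, C and D, against 8.98, 8.45 and 8.28 in CD11c- cells. The fractions did not overlap, and mouse D had the lowest array of each. The difference was -2.10 (SE 0.236, 95% confidence interval -2.73 to -1.47), a 4.28-fold lower signal, with an adjusted p of 0.0498 that lay just inside the threshold. It did not pass without mouse A (0.246), mouse C (0.0747) or mouse D (0.0682), nor with arrays centred on their median (0.0760), after cyclic loess (0.0792) or without the mouse block (0.0545), and with CD3 centring the difference was -1.36 (0.00257).

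Tnfrsf21 was above background in CD11c+ cells alone. It encodes DR6, a death-domain receptor that restrains the responses of T and B cells in mice. Its signal was 6.91, 7.81 and 6.86 in CD11c+ cells, against 3.17, 3.43 and 4.60 in CD11c- cells. All 3 CD11c+ arrays lay above background and all 3 CD11c- arrays below it, the highest of them being that of mouse D. The difference was 3.46 (SE 0.441, 95% confidence interval 2.28 to 4.64), or at least 3.84-fold higher when CD11c- cells are taken at the background level, a bound below the 5.48-fold of Cd40lg, and its adjusted p of 0.0618 missed the threshold. The second probe set of the gene had 5.53, 5.89 and 6.28 in CD11c+ cells, against 4.51, 4.52 and 4.48 in CD11c- cells, a difference of 1.39 (adjusted p = 0.0740). Tnfrsf21 passed with the probe sets averaged (2.43, adjusted p = 0.00931), without the mouse block (0.0170) and with the mouse as a random effect (0.0133). It also passed with a trended variance (0.0222) and with dim probe sets left out (0.0263). With CD3 centring, where 22412 of the 45141 probe sets rose, its difference was 4.20 (adjusted p = 4.18e-07). Without mouse D its difference was 4.06 (adjusted p = 0.0133), but Tnfrsf21 did not pass without mouse A (0.280) or mouse C (0.128). Nor did it pass with arrays centred on their median (0.0938) or after cyclic loess (0.0963).

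The 250 bases before the start of Tnfrsf21, chr17:43016305-43016554 on the plus strand of GRCm38.p6 in RefSeq, are shown because both probe sets of this member were higher in CD11c+ cells without overlap. None of the 4 motifs searched, AP-1, RUNX, kappaB and the PU.1 motif GAGGAAGT that 2.44% of all promoters hold, has a match in this window.
Tnfrsf21: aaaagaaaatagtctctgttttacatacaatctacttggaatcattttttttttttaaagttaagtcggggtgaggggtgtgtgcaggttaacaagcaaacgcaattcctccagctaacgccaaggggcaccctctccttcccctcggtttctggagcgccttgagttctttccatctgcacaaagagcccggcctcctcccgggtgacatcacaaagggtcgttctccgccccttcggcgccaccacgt
The PU.1 motif was found in 0 of the 35 promoter entries of the members.

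The other death-domain receptors did not pass. Fas, the receptor of Fas ligand, had 4.21, 4.51 and 4.28 in CD11c+ cells, against 5.98, 5.24 and 4.63 in CD11c- cells, a difference of -0.95 (95% confidence interval -1.78 to -0.12, adjusted p = 0.313). Its CD11c+ arrays all lay below its CD11c- arrays and below background, so the difference is not exact and comes to at least 1.02-fold lower against that level, and the gap was widest in mouse A. Tnfrsf1a, the broadly expressed TNF receptor with a death domain, had 7.56, 8.23 and 8.01 in CD11c+ cells, against 7.63, 6.96 and 6.87 in CD11c- cells. The difference of 0.78 (95% confidence interval -0.06 to 1.61, adjusted p = 0.404) came from mice C and D, and in mouse A the fractions were nearly level. Tnfrsf10b, the mouse TRAIL death receptor, had a difference of -0.58 (adjusted p = 0.296) that was negative in 3 of 3 mice but 0.16 with the arrays centred on the CD3 chains. Ngfr, the low-affinity neurotrophin receptor, lay at the background level in both fractions, with means of 5.39 in CD11c+ and 5.26 in CD11c- cells. Over the 6 death-domain receptors 0 rose and 1 fell in limma, with 1 above and 2 more below 0 at an unadjusted p under 0.05.

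Among the receptors that bind TRAF adaptors, Tnfrsf4 fell. It encodes OX40, a co-stimulatory receptor of activated and regulatory T cells. Its signal was 7.07, 6.51 and 6.89 in the CD11c+ cells of mice A, C and D, against 8.46, 8.57 and 8.59 in CD11c- cells. The fractions did not overlap, and the CD11c- arrays lay close together. The difference was -1.72 (SE 0.180, 95% confidence interval -2.20 to -1.24), a 3.29-fold lower signal, with an adjusted p of 0.0420. It did not pass without mouse A (0.164), mouse C (0.138) or mouse D (0.0916), nor with arrays centred on their median (0.0702) or after cyclic loess (0.0657), and with CD3 centring the difference was -0.98 (0.0145).

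Tnfrsf18 and Cd27 lay in the same direction. Tnfrsf18, which encodes GITR, a co-stimulatory receptor abundant on regulatory T cells, had 8.73, 8.28 and 8.52 in CD11c+ cells, against 9.38, 9.59 and 9.41 in CD11c- cells. Cd27, whose product sustains T cell memory, had 8.59, 8.16 and 7.90 in CD11c+ cells, against 9.16, 9.12 and 9.21 in CD11c- cells. The CD11c- arrays lay within a narrow range for both genes, above all CD11c+ arrays. The differences were -0.95 for Tnfrsf18 (SE 0.179, adjusted p = 0.124) and -0.95 for Cd27 (SE 0.189, adjusted p = 0.138), a 1.93-fold lower signal for each, and both missed the threshold. Tnfrsf18 passed without the mouse block (0.0418) and with the mouse as a random effect (0.0327), and with CD3 centring both differences were -0.21. Foxp3, given above, lay in the same direction as these receptors, and its part in their values was not tested.

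Receptors of TNF and lymphotoxin lay on the other side of 0. Ltbr, the lymphotoxin beta receptor, which is known from stromal and myeloid cells, had 6.51, 6.33 and 5.69 in CD11c+ cells, against 5.31, 5.69 and 5.14 in CD11c- cells. Tnfrsf1b, the second TNF receptor, which is found on lymphocytes and myeloid cells, had 8.81, 9.06 and 9.36 in CD11c+ cells, against 8.55, 7.78 and 9.18 in CD11c- cells. Both were higher in the CD11c+ fraction of 3 of 3 mice, yet their fractions overlapped. For Ltbr this was a tie at 5.69 between the CD11c+ array of mouse D and the CD11c- array of mouse C. The second probe set of Tnfrsf1b, with a difference of 0.57 (adjusted p = 0.297), did not overlap. The differences were 0.80 for Ltbr (SE 0.185, 95% confidence interval 0.30 to 1.30, adjusted p = 0.177) and 0.57 for Tnfrsf1b (SE 0.269, 95% confidence interval -0.15 to 1.29, adjusted p = 0.481). The monocyte marker Csf1r, at 8.14 ± 0.094 in CD11c+ and 5.39 ± 0.23 in CD11c- cells, was higher in the same fraction. Of the 11 monocyte and macrophage markers 10 lay above 0 and 1 below it. That was Ms4a6c, at 8.68 ± 0.52 in CD11c+ and 9.70 ± 0.12 in CD11c- cells, without overlap. The part of such cells in the values of Ltbr and Tnfrsf1b was not tested.

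Cd40, the receptor of CD40 ligand on B cells and antigen-presenting cells, varied more between mice than between fractions. It had 8.41, 7.10 and 6.43 in the CD11c+ cells of mice A, C and D, against 7.86, 6.84 and 6.48 in CD11c- cells. The signal was highest in mouse A and lowest in mouse D in both fractions, and the difference was 0.25 (95% confidence interval -0.20 to 0.70, adjusted p = 0.628). Of the 11 B cell markers measured 10 lay above 0 and 2 rose, Pax5 by 2.03 and Fcer2a by 2.25, and Cd79a had a difference of 2.64 without overlap (adjusted p = 0.0955). Their summed signal was 717 to 1598 in CD11c+ and 625 to 1447 in CD11c- cells, a sum to which Blk, the one marker below 0, gave much, at 7.64 in CD11c+ and 8.92 in CD11c- cells. The part of B cells in the values of Cd40 was not tested. The BAFF receptor gene Tnfrsf13c had a difference of 0.39 (95% confidence interval -0.21 to 0.99). Tnfrsf13b, which encodes TACI, had 5.13, 5.83 and 3.26 in CD11c+ cells, against 3.99, 5.47 and 4.40 in CD11c- cells, and Tnfrsf17, which encodes BCMA, had 4.15, 4.42 and 5.02 in CD11c+ cells, against 4.38, 4.90 and 4.58 in CD11c- cells. The means of neither receptor were above background in either fraction, and their fractions overlapped.

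Of the remaining TRAF-binding receptors, 3 were above background in both fractions. Tnfrsf14, which encodes HVEM, had a difference of -0.24 (95% confidence interval -0.61 to 0.14). Tnfrsf12a, the receptor of TWEAK, had one of 0.51 (95% confidence interval -0.15 to 1.16), and Tnfrsf9, an activation-induced co-stimulatory receptor, one of -0.06 (95% confidence interval -0.56 to 0.45). Tnfrsf8, Tnfrsf11a, Tnfrsf19 and Eda2r were below background in both, with differences from -0.27 to 0.21. Over the 16 receptors of this class 1 fell and 0 rose in limma, with 1 above and 2 more below 0 at an unadjusted p under 0.05, and their median difference was -0.056.

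The decoy and other receptors did not pass. Tnfrsf22, a mouse receptor for TRAIL without a death domain, had 7.82, 7.39 and 7.48 in CD11c+ cells, against 8.13, 8.23 and 8.40 in CD11c- cells. The fractions did not overlap, and the difference was -0.69 (95% confidence interval -1.16 to -0.21, adjusted p = 0.213) but 0.052 with the arrays centred on the CD3 chains. Its other probe sets gave -1.03, -0.06 and 0.19, and the gene has a close paralogue, Tnfrsf23, so its signal is uncertain. Tnfrsf23 and Tnfrsf11b, which encodes osteoprotegerin, the soluble decoy of RANK ligand, were not above background in either fraction. Tnfsf13os had a difference of -0.21 (adjusted p = 0.605) at a signal below background. Its second probe set, also below background, had the opposite sign, at 0.45, and missed the threshold in limma (adjusted p = 0.386). There every CD11c+ array lay above every CD11c- array, so the probe sets of this transcript shared no direction.

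Ligands and their known receptors were set side by side for 20 of 23 listed pairs with both genes measured. For 13 pairs the ligand and the receptor lay on opposite sides of 0, for 5 both lay below it and for 2 both above it, while with the arrays centred on the CD3 chains 8 pairs lay on opposite sides and 12 both above 0. In 6 pairs a ligand below 0 stood with a receptor above 0 that was above background. These were Cd40lg with Cd40, Lta with Tnfrsf1b, Ltb with Ltbr, Tnf with Tnfrsf1a and with Tnfrsf1b, and Tnfsf13b with Tnfrsf13c. With CD3 centring 5 of these, all but the last, kept their signs, but Ltb at -0.09 and Tnf at -0.03 were then close to 0. Both genes were above background in 7 pairs in CD11c+ cells and in 9 pairs in CD11c- cells. Of these, 3 pairs reached it in CD11c- cells alone, Lta with Tnfrsf1b, Fasl with Fas and Tnfsf10 with Tnfrsf10b, and 1 in CD11c+ cells alone, Tnfsf13b with Tnfrsf13c. These last were close to the level, since Lta and Fas had CD11c- means of 5.51 and 5.28, Tnfsf10 one of 5.41 and Tnfrsf13c a CD11c+ mean of 5.26. The receptors of Tnfsf13, the ligand that rose, were not above background, with differences of 0.12 for Tnfrsf13b and -0.09 for Tnfrsf17.

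**Figure D4:**
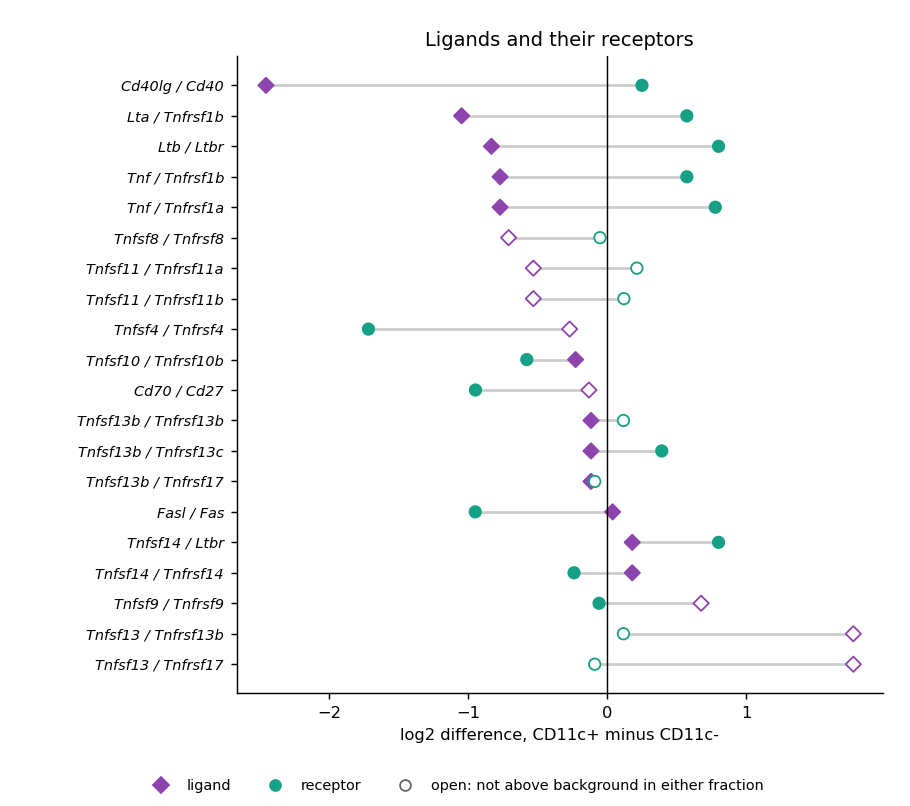
Log2 difference between the fractions, CD11c+ minus CD11c- (horizontal axis), of the ligand (diamond) and the receptor (circle) in 20 pairs (vertical axis), with open markers for genes not above background in either fraction. The ligands Cd40lg, Lta, Ltb and Tnf lie left of 0 and their receptors right of it, while Tnfrsf4 and Cd27 lie farther left than their ligands.

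Many of the members sit in clusters in the mouse genome. For the signs given here, 24 of the 40 members and 11299 of all 17097 genes had differences below 0. Chromosome 4 holds 8 of them, and 7 of these had differences below 0, or 3 with the arrays centred on the CD3 chains, including both that fell. There Tnfrsf4 and Tnfrsf18 are neighbours, at -1.72 and -0.95, Tnfrsf25 had -2.10 and Tnfrsf14 -0.24, while Tnfrsf1b at 0.57 was the exception. Chromosome 17 holds another 8, among them the adjacent Ltb, Tnf and Lta, and also Tnfrsf21, and 4 of the 8 lay below 0. On chromosome 6, Cd27 at -0.95 shares the chromosome with Ltbr at 0.80 and Tnfrsf1a at 0.78. Members of chromosomes 4, 17 and 6 thus differed in direction within each. The 3 on chromosome 14 and the 2 on the X chromosome all lay below 0, and the 2 on chromosome 15 above it. Of these, Tnfrsf19, Tnfsf11, Eda2r and Tnfrsf11b were not above background in either fraction. Signs shared by so few genes were not tested.

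The genes that carry the signal inside the cell were described from a list of TRAF proteins, NF-kappaB subunits, kinases, ubiquitin enzymes and caspase regulators, of which 46 of 51 were measured. Only Cyld passed, a deubiquitinase that restrains NF-kappaB signalling and whose loss activates it. It had 5.62, 5.76 and 5.96 in the CD11c+ cells of mice A, C and D, against 6.74, 6.92 and 7.16 in CD11c- cells. The fractions did not overlap, and Cyld fell by 1.16 on the log2 scale (SE 0.124, 95% confidence interval -1.49 to -0.83, adjusted p = 0.0449). Cyld did not pass when any 1 of the mice was left out, after cyclic loess, with a trended variance or with arrays centred on their median or on the CD3 chains.

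The other signalling genes numbered 45, and at an unadjusted p under 0.05 there were 5 above and, with Cyld, 9 below 0. Their median difference with Cyld was -0.135, against -0.0864 over all genes, and 0.604 with CD3 centring. Among adaptors of the receptors described above, Traf5, which binds OX40, CD27 and CD40 among others, had 7.87, 7.66 and 7.22 in CD11c+ cells, against 8.61, 8.63 and 8.71 in CD11c- cells, a difference of -1.07 (adjusted p = 0.116). Traf1 had -0.83, Traf2 -0.25, Traf4 -0.61 and Traf6 0.07, and none of these passed. Nfkbia, the NF-kappaB inhibitor that NF-kappaB itself induces, had -0.68 (adjusted p = 0.199), and Tnfaip3, which encodes the inhibitor A20, had -0.51 (adjusted p = 0.348).

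At the other end, Jun, an AP-1 subunit at the end of the kinase branch, had 10.9, 11.1 and 11.0 in CD11c+ cells, against 9.96, 9.38 and 8.64 in CD11c- cells. All CD11c+ arrays were higher and nearly level, and the CD11c- arrays spread widely, and the difference of 1.66 (SE 0.304) had an adjusted p of 0.120. Tnfaip8 had 0.94 (adjusted p = 0.119), Rel 0.82 (adjusted p = 0.369) and Adam17, the protease that sheds TNF from the membrane, 0.61 (adjusted p = 0.410), and each was higher in the CD11c+ fraction of 3 of 3 mice. The death adaptor Fadd had 0.45 (adjusted p = 0.286) and Casp8, the caspase it recruits, -0.04 (adjusted p = 0.906).

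**Figure D5:**
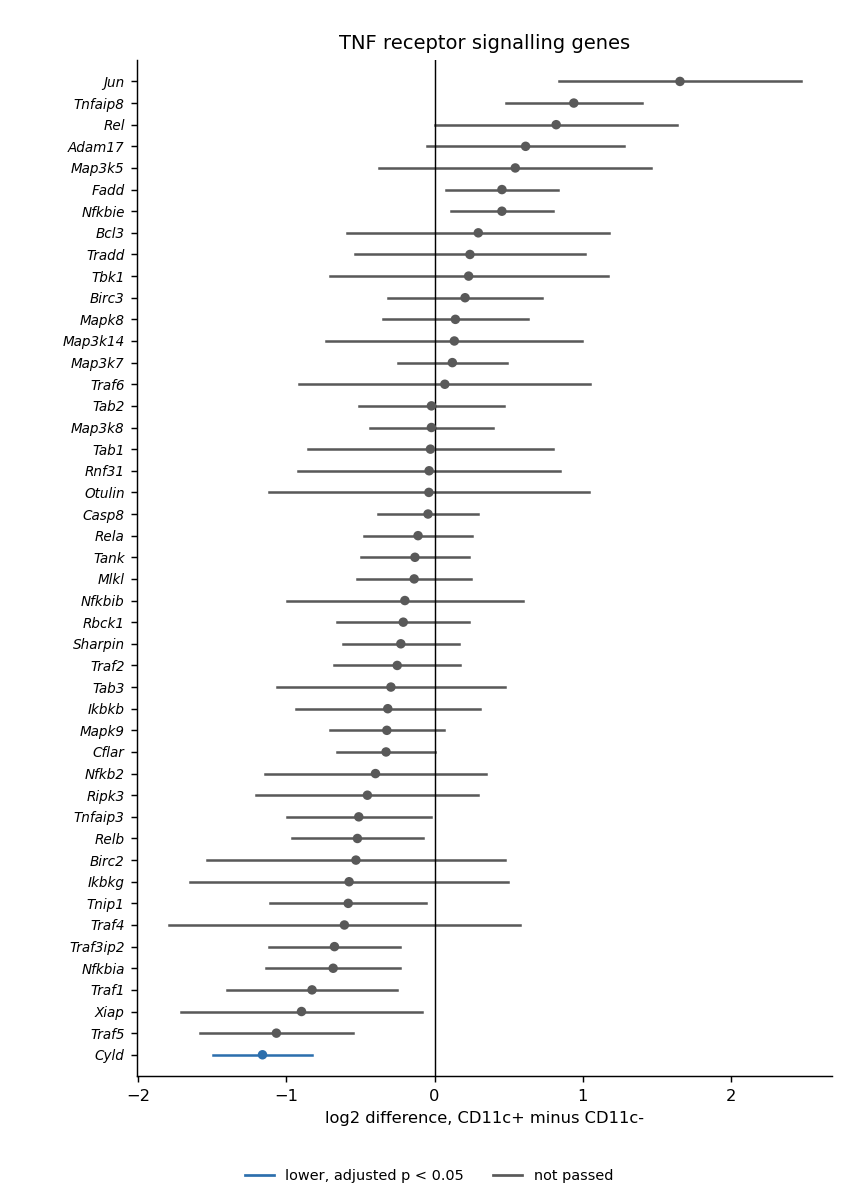
Log2 difference between the fractions, CD11c+ minus CD11c- (horizontal axis), of the 46 signalling genes (vertical axis, ordered by difference), with a point for the fitted value and a line for its 95% confidence interval. Cyld at -1.16, coloured, is the one gene past the adjusted p of 0.05, and Jun at 1.66 lies at the opposite end with a wider interval.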

How the data were processed

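RNA of 6 samples, the CD11c+ and the CD11c- fraction of 3 mice, was amplified for 24 cycles and hybridised to single-colour Affymetrix HT MG-430 PM arrays. The authors normalized and summarized the scans by RMA and deposited log2 signals, so the array medians are nearly alike (4.40 to 4.54) and a change in total RNA per cell cannot be seen. From these, limma 3.58.1 in R 4.3.3 was fitted to all 45141 probe sets with a fixed term for the mouse. Its p-values are two-sided, were adjusted by Benjamini-Hochberg and were held to 0.05. With 6 arrays, 2 residual degrees of freedom are left for a probe set, which limits the precision. Pairing follows the labels, by which both fractions of a pair are of 1 mouse. After subtraction of the group means, the arrays of a pair correlated at 0.122, 0.0758 and 0.109 across probe sets, and arrays of unlike mice at -0.086 to -0.0217. Of the probe sets, 28898 have 1 gene symbol in the platform annotation, 551 have several and 15692 have none. Each gene was represented by its single-symbol probe set with the highest mean, and 17 of the 40 members have several, 64 probe sets in all. Of the 24 others 17 had the same sign and none passed the threshold. The probe set that names Tnfsf13 together with other symbols was not used. Members named with values for each array were those past the threshold, the 8 with the highest mean, the 5 above background with the largest differences shared by 3 of 3 mice among those not past it, of which Tnfrsf18 and Cd40lg are also among the 8, and the ligands or receptors of these. Other members, Ltb, Ltbr and Tnfsf14 with values for each array among them, and signalling genes were named after their values were seen. Members and lists were chosen with earlier results of these data known. Promoters and gene order come from RefSeq on GRCm38.p6. The limma step was also run on simulated data with known changes, and the outcome is not given here. Alternatives changed the block, the probe set taken for a gene, the filter, the scaling, the variance model or the threshold, or left out a mouse. The one that centres arrays on Cd3e, Cd3d, Cd3g and Cd247 was added after the data had been seen.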

Additional observations from a re-analysis of the deposited data

How the results depend on the processing

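The limits are few mice and dim signal, since 15 of the 40 members were not above background in either fraction. Members that rose numbered 1, against 2 without the replicate block, with the mouse as a random effect, with a trended variance, with the probe sets of a gene averaged or at an adjusted p under 0.1, 18 with the arrays centred on the CD3 chains, and 0 to 1 when a mouse was left out. Members that fell numbered 2, the same without the replicate block, against 0 with arrays centred on their median or after cyclic loess, 4 with the random effect, 3 with the dim filter, with a trended variance, with averaged probe sets, at 0.1 and with CD3 centring, and 0 in limma when any mouse was left out, where 9 were below 0 at an unadjusted p under 0.05 in each case (10 with arrays centred on their median and 11 after cyclic loess). The fixed block and its absence thus differed for Tnfrsf25, Tnfrsf21 and Tnfrsf18. The median difference of the members was -0.124, against 0.615 with CD3 centring, -0.228 with the dim filter and -0.241 to -0.131 when a mouse was left out. Of the signalling genes 0 rose, against 19 with CD3 centring and 1 with averaged probe sets or a trended variance, and 1 fell, against 0 with CD3 centring, centring on the median, cyclic loess or a trended variance, 2 with the random effect and 0 when any mouse was left out (4 to 10 at an unadjusted p under 0.05). Their median was -0.135, against 0.604 with CD3 centring, -0.0675 with averaged probe sets, -0.0544 after cyclic loess and -0.165 to -0.0924 when a mouse was left out. Over all probe sets 432 rose and 76 fell, against 684 and 211 without the block, 812 and 316 with the random effect, 684 and 207 with a trended variance, 607 and 140 with the dim filter, 845 and 380 at 0.1, 349 and 51 with arrays centred on their median, 343 and 41 after cyclic loess, 22412 and 232 with CD3 centring, and 0 to 348 and 0 to 44 when a mouse was left out.

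Of 327 alternative values of 30 members, 267 kept their direction and their side of the threshold, 14 no longer passed, 24 newly passed and 22 changed direction. With CD3 centring the differences became 0.61 for Cd70, 0.16 for Tnfrsf10b, 0.50 for Tnfrsf14, 0.65 for Tnfrsf17, 0.052 for Tnfrsf22, 0.68 for Tnfrsf9, 0.51 for Tnfsf10, 0.62 for Tnfsf13b and 0.47 for Tnfsf4. With averaged probe sets they became -0.25 for Fasl, 0.055 for Tnfrsf9 and -0.097 for Tnfsf14, and after cyclic loess 0.015 for Tnfrsf9. When a mouse was left out they ran from -0.13 to 0.31 for Fasl, from -0.054 to 0.34 for Ngfr, from -0.40 to 0.75 for Tnfrsf13b, from -0.36 to 0.10 for Tnfrsf17, from -0.17 to 0.15 for Tnfrsf9, from -0.19 to 0.016 for Tnfsf13b and from -0.25 to 0.50 for Tnfsf14. The causes of the changed counts were not tested. Tnfsf13 was removed by the dim filter and passed in the other alternatives that kept all mice.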
